A study of Homo sapiens with 16 samples.

Results

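Non-muscle myosin II is a motor built from a pair of heavy chains, each of which binds an essential and a regulatory light chain. The genes described here are 7 human genes for those chains: the essential light chains MYL6 and MYL6B, the regulatory light chains MYL9, MYL12A and MYL12B, and the heavy chains MYH9 and MYH10. They were taken by gene name from the deposited expression tables, in which they are 7 of 61906 genes and 110 of 251295 transcripts, and they hold 341 of the 299816 transcript models of the long-read files. MYL6 led to the choice, because its transcript usage was already known to respond in both lines, so its response to the siRNA is described with no test. The other 6 genes were added as the rest of its family, and tests were run on them.

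The study depleted HNRNPH1, an RNA-binding protein that regulates splicing, by siRNA in HEK-293T, an embryonic kidney line that carries the SV40 large T antigen, and in HT-1080, a fibrosarcoma line. Cells received 20 nM of an siRNA against HNRNPH1 (siHNRNPH1) or of a control siRNA (siNegative), and RNA was taken after 48 hours. Each of the 4 groups of line and siRNA had 3 short-read libraries, called biological replicates in the labels, and 1 IsoSeq library, which reads full-length cDNA, made from pooled replicates. The questions asked of the myosin genes were whether their levels and their transcripts differed between siHNRNPH1 and siNegative in each line, and whether that response differed between the lines.

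In the motor, the heavy chain carries the ATP- and actin-binding head and the tail that assembles into bipolar filaments. The essential light chain stiffens the lever arm next to the head. Phosphorylation of the regulatory light chain switches the motor and its filament assembly on. MYL6 transcripts are known to differ in a short exon near the 3′ end, which changes the carboxyl end of the protein. These motors drive cell contraction, migration and the constriction that separates dividing cells.

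Library totals were 107745653 to 121026216 expected counts in HEK-293T and 27304426 to 32653160 in HT-1080. Levels are given as CPM, the expected counts of a gene per 1000000 in the library's total, and are compared between libraries, not between genes of different length. HNRNPH1 was at 1105 to 1121 CPM with siNegative and 234.1 to 394.3 with siHNRNPH1 in HEK-293T, and at 605.8 to 634.6 and 228.5 to 231.5 CPM in HT-1080. Of the HEK-293T libraries, siHNRNPH1 replicate 1 stood apart. Its correlation with the other siHNRNPH1 libraries of that line was 0.941 and 0.935 (Pearson's r of log2 CPM across genes), while those correlated at 0.999 with each other. In HT-1080, siNegative replicate 2 stood apart by less: a comparison of its counts with those of the other siNegative libraries gave chi-square values per degree of freedom of 17.8 and 17.4, against 1.78 between those. Responses of the myosin genes to siHNRNPH1 are given with and without these libraries where their sign or call changed. In HT-1080, responses of other genes that act on these motors are mostly given with all libraries. Of 5 smooth-muscle markers, MYH11, the smooth-muscle heavy chain, stayed at or below 0.139 CPM in every library, DES at or below 0.0496 and CNN1 at or below 0.429. ACTA2 ranged from 2.40 to 20.4 CPM and SMTN from 30.5 to 206.6 CPM. The 6 HT-1080 markers, all found in every library, summed to 6186 to 6414 CPM with siNegative in that line and to 19.11 to 19.23 CPM in HEK-293T. Most of the HT-1080 sum was CD44 and PLAU, while NT5E differed little between the lines (means of 0.44 and 0.25 CPM with siNegative). The 4 HEK-293T markers summed to 428.3 to 451.5 CPM with siNegative in HEK-293T and to 20.3 to 27.5 CPM in HT-1080. Of these, LIN28B, PAX2 and NEFM had higher means in HEK-293T, and PAX8 had a lower mean there (0.0085 against 1.14 CPM).

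In both lines, MYL6 (ENSG00000092841.19) was carried mainly by a different transcript with siHNRNPH1 than with siNegative. Its summed level had a log2 fold change of 0.16 in HT-1080, and in HEK-293T the sign of that change depended on 1 library. The transcript ENST00000547649.5 held 68.0%, 67.2% and 66.9% of the MYL6 expected counts in the HEK-293T siNegative libraries, and 20.1%, 19.2% and 18.04% in the siHNRNPH1 libraries. In HT-1080 it held 55.4%, 55.2% and 53.4% with siNegative and 14.7%, 16.4% and 14.4% with siHNRNPH1. The groups did not overlap in either line, and the HEK-293T library that stood apart lay beside its replicates on this measure.

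The counterpart was ENST00000550697.6. In HEK-293T it held 19.1%, 19.5% and 19.5% of MYL6 with siNegative, against 65.0%, 63.8% and 64.8% with siHNRNPH1. In HT-1080 it held 28.4%, 28.7% and 30.2% with siNegative and 68.0%, 66.9% and 66.9% with siHNRNPH1. Most of the gene stayed within this pair of transcripts: in HEK-293T their joint share was 86.7% ± 0.31 with siNegative, against 83.7% ± 1.22 with siHNRNPH1 (SD, n = 3 each), and it was 83.8% ± 0.14 and 82.4% ± 1.01 in HT-1080. The remaining 19 of 21 listed MYL6 transcripts each differed by less than 5 percentage points between the siRNA groups in both lines. Among these, ENST00000548580.5 held 4.06% ± 0.19 with siNegative against 8.72% ± 0.15 in HEK-293T, and 2.57% ± 0.32 against 4.06% ± 0.07 in HT-1080, again with no overlap between groups. The deposited tables name transcripts only by their Ensembl ID and do not say which exons each contains. RSEM divides reads that fit several transcripts by a model, so these shares are estimates.

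**Figure D1:**
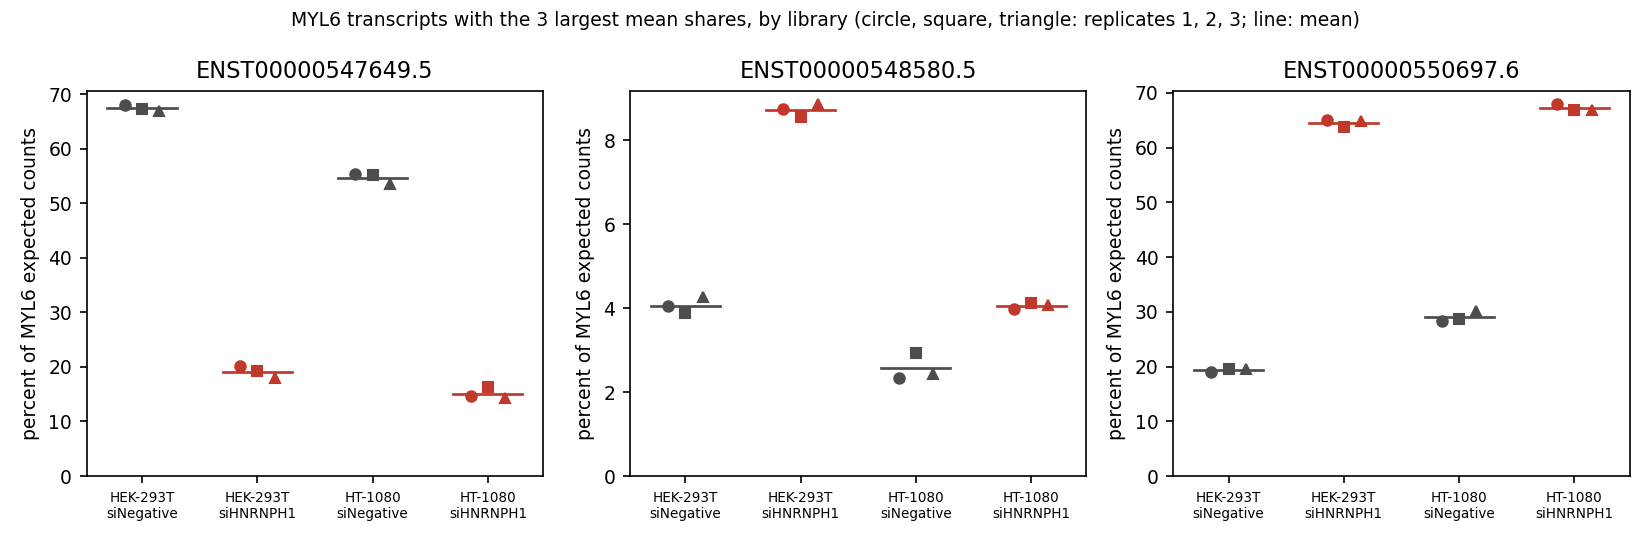
Percent of the MYL6 expected counts (linear axis from 0, scaled separately in each panel) assigned to the 3 transcripts with the largest mean share, by group; each symbol is a library and the line is the mean of 3. ENST00000547649.5 sits at 53.4% to 68.0% with siNegative and 14.4% to 20.1% with siHNRNPH1, and ENST00000550697.6 shows the opposite pattern.

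In absolute terms, ENST00000550697.6 stood at 139.0 CPM ± 17.7 with siNegative and 377.5 ± 7.22 with siHNRNPH1 in HT-1080 (SD, n = 3 each), while ENST00000547649.5 stood at 261.6 CPM ± 37.4 and 84.9 ± 6.86. MYL6 as a whole was at 435.0, 551.8 and 447.4 CPM with siNegative and 565.0, 566.1 and 552.7 CPM with siHNRNPH1 in that line. All siHNRNPH1 libraries were above all siNegative libraries, the lowest of them by far less than the spread with siNegative. The fitted log2 fold change was 0.16, and 0.28 without siNegative replicate 2, the highest of that group. In HEK-293T, MYL6 was at 346.4, 330.5 and 349.2 CPM with siNegative and 542.4, 272.3 and 266.2 CPM with siHNRNPH1. Replicate 1 of siHNRNPH1 was the highest of the 6 libraries and the other siHNRNPH1 libraries were the lowest. The log2 fold change was 0.07 with that library and -0.40 without it.

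The long reads show the exon near the 3′ end of MYL6 directly. In the IsoSeq models, which the submitters' processing notes place on GRCh38.p13, an exon of 45 bases lies at chr12:56160626-56160670, between an exon that ends at 56160320 and the last exon, which starts at 56161387. Among HT-1080 models that were spliced across this stretch, 3 of 6 contained the exon with siNegative. With siHNRNPH1, 3 of 5 contained it. No difference between the pools was read from so few models. In HEK-293T the only model spliced across this stretch came from the siHNRNPH1 pool, and it contained the exon.

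Models are counted as distinct structures and are not weighted by reads, so a form that makes up most of the RNA counts no more than a rare one. Many MYL6 models kept the introns on both sides of this exon inside a longer exon: 3 of 3 models in HEK-293T siNegative, 3 of 4 in HEK-293T siHNRNPH1, 3 of 9 in HT-1080 siNegative and 6 of 12 in HT-1080 siHNRNPH1. A further HT-1080 siHNRNPH1 model began at the exon and ran on into the last exon. With 1 pool per group there is no replicate check on any of these counts.

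**Figure D2:**
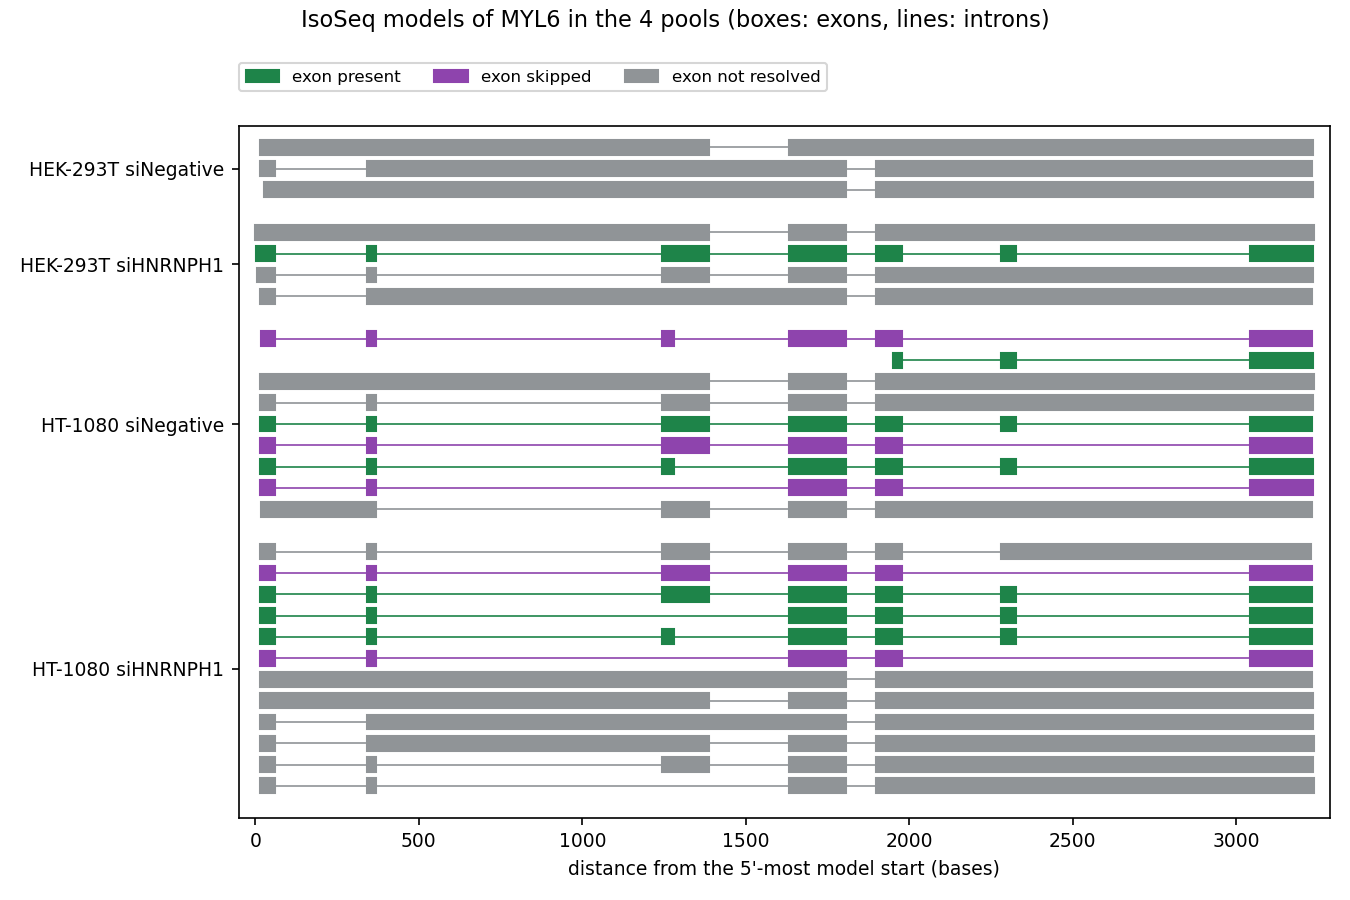
Exon structure of the MYL6 transcript models in the 4 IsoSeq pools (1 pool per group), with boxes for exons and lines for introns, drawn to scale by distance in bases from the 5′-most model start. Green models contain the 45-base exon (1 in HEK-293T siHNRNPH1, 3 in each HT-1080 pool), purple models skip it (3 in HT-1080 siNegative and 2 in HT-1080 siHNRNPH1), and grey models do not resolve it.

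MYL6B (ENSG00000196465.11), the other essential light chain, was at 55.3, 53.9 and 55.8 CPM with siNegative and 106.7, 52.8 and 50.5 CPM with siHNRNPH1 in HEK-293T. As for MYL6, the siHNRNPH1 library of replicate 1 was the highest of the 6 and the other siHNRNPH1 libraries were the lowest. In HT-1080 it was at 73.4, 87.1 and 77.3 CPM with siNegative and 88.7, 89.8 and 86.1 CPM with siHNRNPH1, so the groups overlapped. The HT-1080 log2 fold change of 0.09 (SE 0.07) did not pass edgeR's quasi-likelihood test (adjusted p = 0.280, Benjamini-Hochberg over all genes). Without HT-1080 siNegative replicate 2, which held the highest siNegative value, it was 0.16 with an edgeR adjusted p = 1.53e-04. In HEK-293T the log2 fold change of MYL6B was 0.34 (SE 0.34, edgeR adjusted p = 0.570). Without siHNRNPH1 replicate 1 of that line it was -0.15 (edgeR adjusted p = 0.00129). Its leading transcript, ENST00000695999.1, held 79.7% ± 0.83 and 82.6% ± 1.65 of the gene in HEK-293T and 80.6% ± 0.92 and 85.3% ± 1.96 in HT-1080 (siNegative, then siHNRNPH1; SD, n = 3), so the changeover of MYL6 had no counterpart of that size in MYL6B.

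All 3 regulatory light chains changed in HT-1080, where 65.3% of all genes tested were called: MYL12A and MYL12B fell and MYL9 rose. MYL12A and MYL12B encode very similar regulatory light chains, and reads from the parts they share could be assigned to either, so their separate values are uncertain. MYL12A (ENSG00000101608.13) was at 195.0, 223.7 and 190.4 CPM with siNegative and 116.7, 119.1 and 119.7 CPM with siHNRNPH1 in HT-1080. The groups were far apart, and the siHNRNPH1 libraries lay close together. MYL12A was thus 1.80-fold lower, a log2 fold change of -0.85 (SE 0.06; edgeR adjusted p = 2.45e-06).

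MYL12B (ENSG00000118680.14) was at 273.3, 331.0 and 273.4 CPM with siNegative and 216.3, 216.2 and 215.0 CPM with siHNRNPH1 in HT-1080, again without overlap. Its log2 fold change of -0.51 (SE 0.08) had an edgeR adjusted p = 2.25e-04. Both were far lower in the HEK-293T siNegative libraries: MYL12A was at 41.0 to 43.1 CPM and MYL12B at 70.0 to 71.9 CPM there.

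In the HEK-293T siHNRNPH1 libraries MYL12A was at 60.0, 41.6 and 42.6 CPM and MYL12B at 102.9, 63.0 and 68.1 CPM. Replicate 1 was the highest for both, and for MYL12B the other libraries were below every siNegative library. The log2 fold changes were 0.19 (SE 0.20) for MYL12A and 0.12 (SE 0.23) for MYL12B, with edgeR adjusted p-values of 0.593 and 0.781. With that library left out they were -0.04 and -0.17, and the edgeR adjusted p-values were 0.337 and 3.87e-04.

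MYL9 (ENSG00000101335.10) is the regulatory light chain best known from smooth muscle and contractile fibroblasts. It was at 4.94, 5.15 and 5.19 CPM with siNegative and 10.0, 11.7 and 9.73 CPM with siHNRNPH1 in HT-1080. The groups did not overlap, and the gene rose by 0.97 on the log2 scale (SE 0.10), 1.96-fold, with an edgeR adjusted p = 1.62e-05. Its 2 listed transcripts kept similar shares: ENST00000346786.2 held 60.3% ± 4.79 with siNegative and 57.4% ± 5.59 with siHNRNPH1 (SD, n = 3). In HEK-293T, MYL9 had 0 expected counts in all 6 libraries, which allows up to 0.0278 CPM in the shallowest of them (3 counts, counting error only). The summed level of the 5 smooth-muscle markers in HT-1080 was 216.0 to 222.7 CPM with siNegative and 143.2 to 147.1 CPM with siHNRNPH1. Most of it was SMTN, with means of 202.8 and 125.2 CPM, while ACTA2 had means of 16.0 and 20.1 CPM, CNN1 of 0.26 and 0.33 CPM, MYH11 was at 0 in 5 of the 6 libraries and DES in all 6. The 10 striated-muscle markers summed to 4.52 to 5.35 and 10.1 to 11.8 CPM there, nearly all of it the embryonic heavy chain MYH3, with means of 4.82 and 10.6 CPM. In HEK-293T they summed to 6.44 to 7.02 and 15.1 to 22.02 CPM, with MYH3 means of 5.87 and 16.1 CPM. The HT-1080 markers summed to 6186 to 6414 and 3979 to 4092 CPM in that line. CD44 (means of 3037 and 1873 CPM), PLAU (2843 and 1741 CPM) and CAV1 (265.4 and 160.8 CPM) were lower with siHNRNPH1, whereas TGFBI (124.5 and 181.7 CPM), LOX (64.8 and 83.5 CPM) and the scarce NT5E (0.44 and 0.52 CPM) had higher means. The part of these shifts in the HT-1080 results was not tested.

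Of the heavy chains, MYH10 fell in HT-1080 and MYH9 did not pass the test in either line with all libraries. MYH9 (ENSG00000100345.23), the heavy chain of myosin IIA, was at 1326, 1147 and 1353 CPM with siNegative and 1255, 1232 and 1212 CPM with siHNRNPH1 in HT-1080. The siHNRNPH1 values lay inside the range of the siNegative values. Its log2 fold change of -0.12 (SE 0.06) had an edgeR adjusted p = 0.126. Without HT-1080 siNegative replicate 2, the lowest library, it was -0.19 with an edgeR adjusted p = 8.41e-09.

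In HEK-293T, MYH9 was at 376.0, 382.3 and 367.1 CPM with siNegative and 383.7, 467.9 and 423.5 CPM with siHNRNPH1. All siHNRNPH1 libraries were above all siNegative libraries, replicate 1 by the least. The fold change, 0.15 on the log2 scale (SE 0.12), had an edgeR adjusted p = 0.454. With replicate 1 of siHNRNPH1 left out it was 0.19 (SE 0.03; edgeR adjusted p = 1.15e-04).

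MYH10 (ENSG00000133026.14), the heavy chain of myosin IIB, was at 69.9, 55.9 and 68.7 CPM with siNegative and 49.8, 45.8 and 48.8 CPM with siHNRNPH1 in HT-1080. The groups did not overlap, and MYH10 was 1.41-fold lower (log2 -0.50, SE 0.08, edgeR adjusted p = 3.86e-04). In HEK-293T it was at 386.4, 393.9 and 381.9 CPM with siNegative and 188.4, 393.6 and 383.7 CPM with siHNRNPH1. Only replicate 1 of siHNRNPH1 lay outside the siNegative range. Its log2 fold change there was -0.31 (SE 0.27; edgeR adjusted p = 0.519), and without that library -0.05 (edgeR adjusted p = 0.102).

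**Figure D3:**
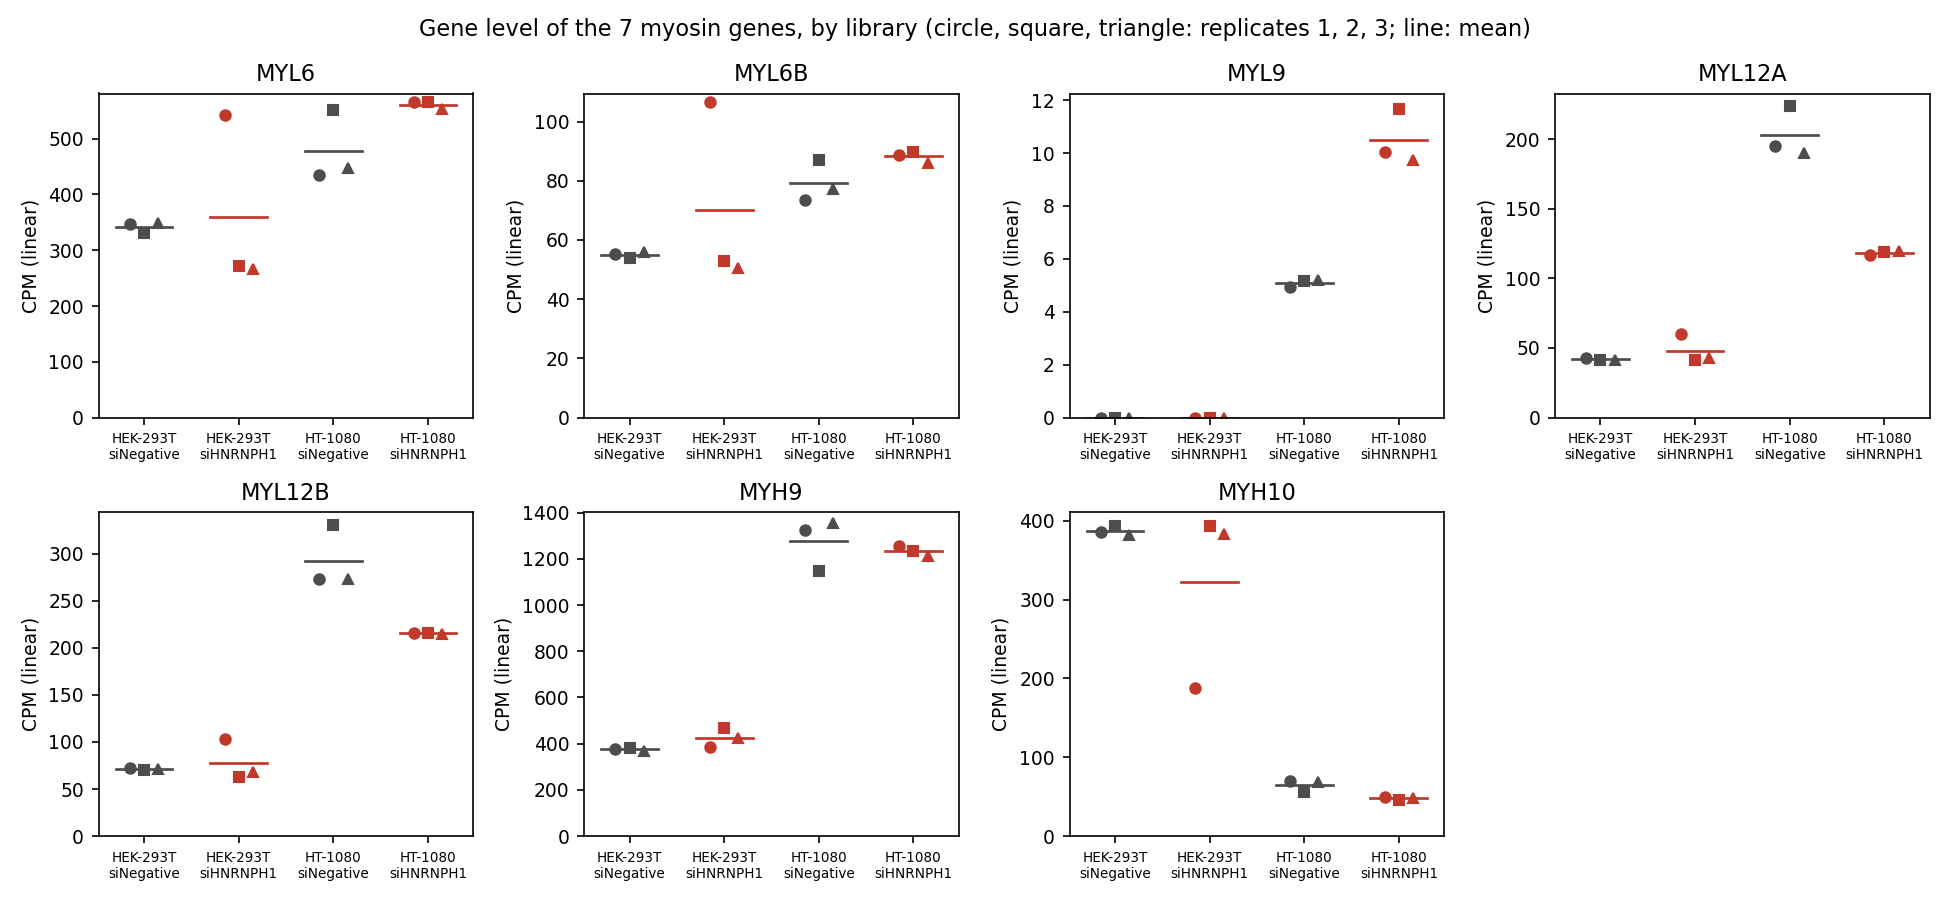
Level of each of the 7 myosin genes in CPM (linear axes from 0, scaled separately) by group; each symbol is a library and the line is the mean of 3. In HT-1080, MYL12A, MYL12B and MYH10 are lower and MYL9 is higher in all 3 siHNRNPH1 libraries, and in HEK-293T replicate 1 of siHNRNPH1 (circle) is high for all 4 detected light chains and low for MYH10.

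Counted over the family without MYL6, 4 of 6 genes passed edgeR's test in HT-1080 at an adjusted p under 0.05, 1 higher (MYL9) and 3 lower (MYL12A, MYL12B and MYH10). In that comparison 65.3% of all genes tested were called, 32.7% higher and 32.6% lower, so the share of myosin genes called is near that of genes in general. The median log2 fold change of the 6 was -0.31, beside 0.01 over all genes tested. Without HT-1080 siNegative replicate 2, 6 of 6 were called, beside 70.4% of all genes, 34.9% higher and 35.5% lower. The log2 fold changes were then -0.77 for MYL12A, -0.41 for MYL12B, -0.59 for MYH10 and 0.98 for MYL9. In HEK-293T, where MYL9 was not tested, 0 of 5 genes were called by edgeR, 0 had an unadjusted p under 0.05, and DESeq2 called 0. There 10.0% of all genes were called, 5.12% higher and 4.88% lower. With siHNRNPH1 replicate 1 of HEK-293T left out, 3 of 5 were called (MYH9 higher, MYL6B and MYL12B lower), beside 61.8% of all genes, 30.5% higher and 31.3% lower.

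**Figure D4:**
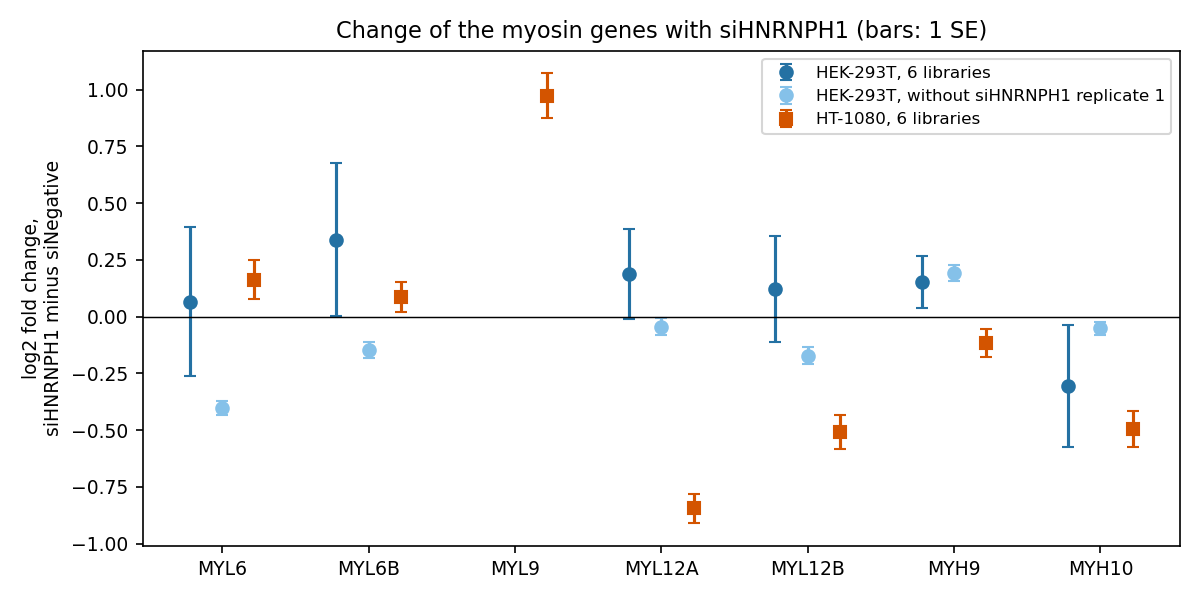
Log2 fold change of each myosin gene, siHNRNPH1 minus siNegative, in HEK-293T with all 6 libraries (dark blue), in HEK-293T without siHNRNPH1 replicate 1 (light blue) and in HT-1080 (orange squares); bars are 1 SE. MYL9 has no HEK-293T value because its count was 0 there. The bars of MYL6 are not read as a test. MYL12A stands at -0.85 in HT-1080 and at 0.19 or -0.04 in HEK-293T.

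The difference between the lines in the response was tested directly, by edgeR on all 12 libraries. MYL12A differed, with a difference of -1.11 between its log2 fold changes (HT-1080 minus HEK-293T, SE 0.23, edgeR adjusted p = 0.00709), and -1.03 without HT-1080 siNegative replicate 2 (edgeR adjusted p = 0.0240). It was the only call among 5 genes, beside 19.0% of all genes, 8.13% with a more positive and 10.8% with a more negative response in HT-1080. The differences of MYL12B (-0.71), MYH9 (-0.34), MYH10 (-0.25) and MYL6B (-0.34) had edgeR adjusted p-values of 0.0987, 0.0865, 0.588 and 0.601. With siHNRNPH1 replicate 1 of HEK-293T left out, MYL12A (-0.85), MYL12B (-0.39), MYH9 (-0.36) and MYH10 (-0.49) were called, 4 of 5 genes beside 49.0% of all genes, 22.7% more positive and 26.4% more negative. MYL9 was fitted but is not counted, because its difference could not be estimated with no counts in HEK-293T (SE 746).

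With siNegative alone, all 7 myosin genes differed in level between the lines. They passed edgeR's test between HT-1080 and HEK-293T, 6 higher in HT-1080 and 1 lower, beside 72.3% of all genes, 34.1% higher and 38.2% lower. MYH10 was 5.12-fold lower in HT-1080 (log2 -2.35, SE 0.21, edgeR adjusted p = 1.64e-06), and MYH9 was 3.97-fold higher (log2 1.99, SE 0.09, edgeR adjusted p = 7.57e-09). MYL12A and MYL12B were 5.69-fold and 4.82-fold higher in HT-1080. MYL9 was at least 591-fold higher, taking 3 counts over all HEK-293T siNegative libraries as the floor.

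MYL6 and MYL6B were the least different between lines, 1.63-fold and 1.69-fold higher in HT-1080, with edgeR adjusted p-values of 0.0338 and 0.0273. The siNegative groups did not overlap. MYL6 was at 330.5 to 349.2 CPM in HEK-293T and 435.0 to 551.8 in HT-1080, and MYL6B at 53.9 to 55.8 and 73.4 to 87.1. Their calls depended on the libraries used: leaving out 1 library in turn gave MYL6 log2 differences of 0.56 to 0.75. The MYL6 call was lost without any 1 of the HEK-293T siNegative, HT-1080 siNegative or HT-1080 siHNRNPH1 libraries. The MYL6B call was lost without any 1 of the HEK-293T siNegative libraries or HT-1080 siNegative replicate 2 or 3. Without HEK-293T siHNRNPH1 replicate 1 both calls were kept, at log2 0.73 (SE 0.07) for MYL6 and 0.77 (SE 0.05) for MYL6B. The edgeR adjusted p-values were then 1.58e-07 and 6.37e-10. The share of all genes called in that fit was not counted. In order of the level within HT-1080 relative to HEK-293T, MYL6B and MYL6 did not differ beyond their errors (log2 0.75, SE 0.27, and 0.71, SE 0.27). Line, deposited table and sequencing depth cannot be told apart in this comparison.

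The long-read model counts of the heavy chains differed between lines in the same direction as their levels. MYH10 had 38 and 50 models in the HEK-293T pools (siNegative, then siHNRNPH1) and 2 and 0 in the HT-1080 pools. MYH9 had 15 and 27 models in HEK-293T and 78 and 74 in HT-1080. The pools held 64705 to 94847 models in all. MYL9 had no model in HEK-293T and 1 and 2 in HT-1080. In HEK-293T siNegative, 1 of 13 MYH10 models spliced across chr17:8569813-8577235 held an extra exon of 30 bases. With siHNRNPH1, 1 of 14 held an exon of 27 bases with the same lower coordinate, 8576643.

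Transcript usage of the other myosin genes was tested with limma's diffSplice, which asks whether a transcript changed relative to the rest of its gene. In HT-1080, 1 of 6 genes was called, MYH9 (limma adjusted p = 7.96e-05), beside 21.2% of all genes with several transcripts. The MYH9 call came from ENST00000685801.1. It held 0.00052%, 1.61% and 0.90% of the gene with siNegative and 2.04%, 2.38% and 1.85% with siHNRNPH1 (limma adjusted p = 2.14e-05). The groups did not overlap, but the transcript stayed a minor one: ENST00000216181.11 held 84.1% ± 3.39 and 84.5% ± 0.11 of MYH9 (SD, n = 3). The MYH9 call was absent with edgeR's diffSpliceDGE (adjusted p = 0.155). Without HT-1080 siNegative replicate 2 its limma adjusted p was 0.00561, and MYL12A was called as well (limma adjusted p = 0.0369).

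In HEK-293T, 0 of 5 genes were called by limma's diffSplice, beside 9.59% of all genes; 1 had an unadjusted p under 0.05, and diffSpliceDGE called 1, in both cases MYH10. Replicate 1 of siHNRNPH1 gave MYH10 a different make-up: ENST00000269243.8 held 85.6%, 87.4% and 87.4% with siNegative but 35.4%, 81.9% and 83.0% with siHNRNPH1. ENST00000685418.1 held 58.9% of MYH10 in that library and at most 0.60% in the other 5 of that line. In HT-1080 it held 0%, 17.4% and 0% with siNegative and 15.3%, 28.3% and 0.94% with siHNRNPH1, so the groups overlapped (limma adjusted p = 0.619 for the transcript). The limma adjusted p for MYH10 in HEK-293T was 0.174 with all libraries and 9.58e-06 without siHNRNPH1 replicate 1, when 41.6% of all genes were called. It was 0.0174 without siHNRNPH1 replicate 2 and 0.0359 without replicate 3. Leaving out a siNegative library gave 0.819 to 0.988. The share of all genes called was not counted in these other fits. Replicate 1 of siHNRNPH1 was also the highest for MYL12B's minor transcript ENST00000400175.9, at 9.80% of the gene against at most 0.94% in the other HEK-293T libraries. No transcript of MYL6B, MYL9, MYL12A, MYL12B or MYH9 shifted by 5 percentage points or more in its mean share in either line.

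Genes that act on these motors were followed as a list of 33, chosen by function with earlier results of these data known. In HT-1080, 24 of the 31 that could be tested were called by edgeR, 10 higher and 14 lower. Of all genes, 65.3% were called there, 32.7% higher and 32.6% lower. The list's median log2 fold change was -0.04, beside 0.01 over all genes. Among kinases and phosphatase subunits that set regulatory light chain phosphorylation, 7 of 11 were called, 3 higher and 4 lower. The largest falls were in CIT, the citron kinase of the cleavage furrow (log2 -1.68, SE 0.09, edgeR adjusted p = 2.41e-07), and MYLK, the kinase that phosphorylates the regulatory light chain (-0.91, SE 0.09, edgeR adjusted p = 1.45e-05). Leaving out 1 HT-1080 library in turn gave -1.79 to -1.62 for CIT and -1.04 to -0.86 for MYLK.

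MYLK was at 231.6, 175.2 and 228.7 CPM with siNegative and 119.7, 115.9 and 117.5 CPM with siHNRNPH1 in HT-1080. In HEK-293T it was at 17.47 to 17.97 CPM with siNegative and 1.91, 7.72 and 7.41 CPM with siHNRNPH1, lower in all 3 libraries. The HEK-293T value was -1.69 on the log2 scale (SE 0.49; edgeR adjusted p = 0.0865), and -1.29 with siHNRNPH1 replicate 1 left out (edgeR adjusted p = 1.14e-14).

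In HT-1080, RHOB, a small GTPase found on endosomes, rose by 0.88 (SE 0.04, edgeR adjusted p = 1.24e-07), and RND3, which opposes RhoA and ROCK1 signalling, rose by 0.63 (SE 0.05, edgeR adjusted p = 2.45e-06). ECT2, the exchange factor that activates RhoA in dividing cells, fell by 1.14 on the log2 scale (SE 0.05, edgeR adjusted p = 6.33e-08). RHOA itself fell by 0.48 in that line (edgeR adjusted p = 1.22e-05). In HEK-293T, RHOA was higher in every siHNRNPH1 library, at 445.0 to 468.4 CPM against 354.3 to 364.2 CPM with siNegative. It was not called there by edgeR with all libraries.

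The actins ACTB and ACTG1 and the crosslinkers ACTN1, ACTN4 and FLNA fell in HT-1080 by edgeR's test, with log2 fold changes of -0.27 to -0.73. None of these was called in HEK-293T with all libraries. There ACTB was at 2046 to 2095 CPM with siNegative and 2171 to 3193 CPM with siHNRNPH1. ACTN4 was also higher there without overlap, while the groups of ACTG1, ACTN1 and FLNA overlapped. Among the myosin partners, MYO18A, an unconventional myosin that binds non-muscle myosin II filaments, rose by 0.85 in HT-1080 (SE 0.05, edgeR adjusted p = 5.16e-07), from 32.8 to 36.2 CPM with siNegative to 64.7 to 68.0 CPM with siHNRNPH1. MYH14, the heavy chain of myosin IIC, was at 12.7 to 23.5 CPM in HEK-293T and at no more than 0.033 CPM in HT-1080.

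In HEK-293T, 2 of the 33 genes were called by edgeR, beside 10.0% of all genes, and both were also called in HT-1080 in the same direction. RND3 was at 18.2, 16.5 and 17.5 CPM with siNegative and 25.6, 33.4 and 34.4 CPM with siHNRNPH1 (log2 0.81, SE 0.14, edgeR adjusted p = 0.0216). ARHGEF2, a microtubule-bound activator of RhoA, was at 46.1, 44.4 and 44.4 CPM with siNegative and 25.9, 27.8 and 24.6 CPM with siHNRNPH1 (log2 -0.81, SE 0.11, edgeR adjusted p = 0.0137). The groups of neither gene overlapped. In HT-1080, ARHGEF2 changed by -0.77 (SE 0.04, edgeR adjusted p = 2.40e-07). With siHNRNPH1 replicate 1 left out, the HEK-293T fit called 23 of the 33, 10 higher and 13 lower, beside 61.8% of all genes. Leaving out any other single HEK-293T library ended both calls (0 of 33 called). The share of all genes called in those fits was not counted. Over all single left-out HEK-293T libraries, the log2 fold change stayed at 0.74 to 0.91 for RND3 and at -0.84 to -0.76 for ARHGEF2.

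**Figure D5:**
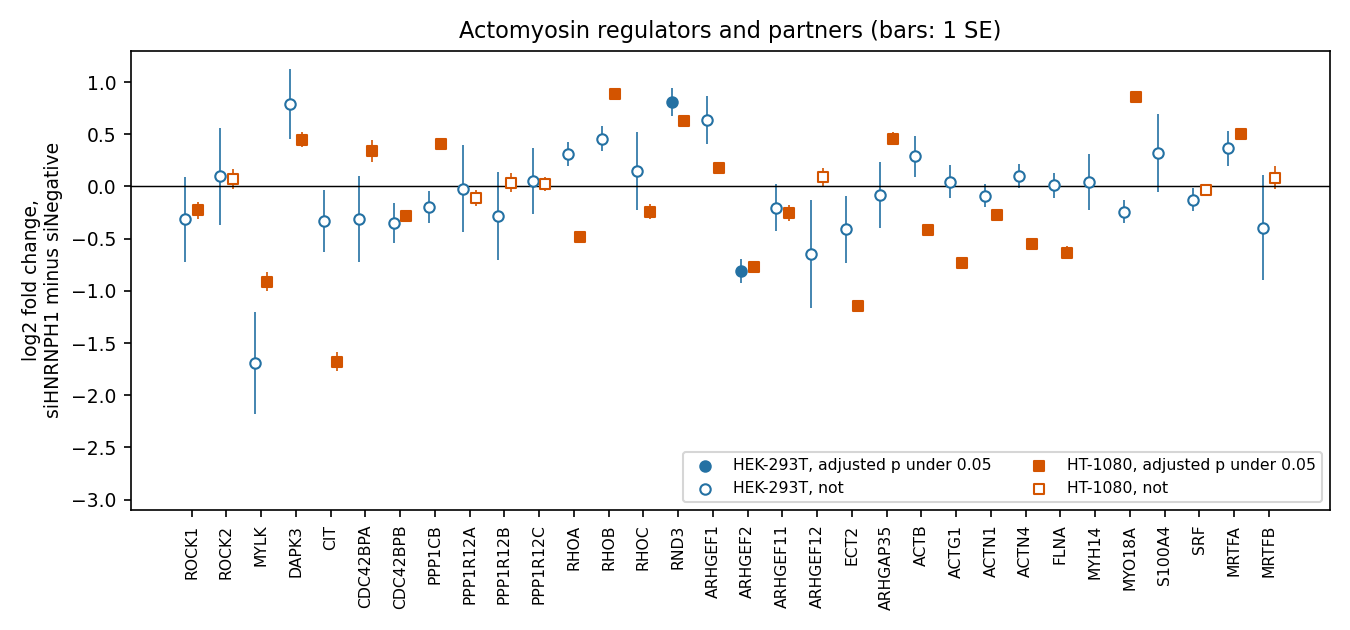
Log2 fold change, siHNRNPH1 minus siNegative, of genes that act with or on non-muscle myosin, in HEK-293T (blue circles) and HT-1080 (orange squares; MYH14 and S100A4 were not tested there); bars are 1 SE and filled symbols have an edgeR adjusted p under 0.05. RND3 and ARHGEF2 are filled in both lines, and the HT-1080 values run from -1.68 (CIT) to 0.88 (RHOB).

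Across all 12 libraries, the transcripts whose share of their gene was most like that of ENST00000547649.5 of MYL6 were those of ZCCHC17 (ENST00000344147.10, r = 0.987), CHD3 (ENST00000358181.8, r = 0.981), BIN1 (ENST00000348750.8, r = 0.976), CENPW (ENST00000368328.5, r = 0.976) and NOP2 (ENST00000322166.10, r = 0.973). They were ranked by Pearson's r among 159 transcripts of genes with a mean count of at least 50 and a shift of at least 20 percentage points between siRNA groups in each line, so high values are built into the choice. The points share libraries and fall into 4 groups. The ZCCHC17 transcript held 81.0% ± 0.65 and 35.3% ± 5.52 of its gene in HEK-293T and 69.4% ± 4.86 and 26.4% ± 2.96 in HT-1080 (siNegative, then siHNRNPH1; SD, n = 3 each).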

How the data were processed

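Human HEK-293T and HT-1080 cells with siNegative or siHNRNPH1 were profiled by short-read RNA-seq (12 libraries) and IsoSeq (4 pools). The authors deposited expected counts per transcript, 1 table per line, made with RSEM per the submitters' processing notes, and IsoSeq transcript models as exon coordinates on GRCh38.p13. Aligner, annotation release and IsoSeq caller are not given in the sources used here. Groups came from the sample labels, columns from the library names in the descriptions, and 0 value columns were left unmatched.

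The expected counts of each gene's transcripts were added up and the sums rounded. edgeR 4.0.16 (TMM scaling, filterByExpr, robust quasi-likelihood test, two-sided) was fitted per line, and on all 12 libraries for the difference between lines, with Benjamini-Hochberg adjustment over all genes tested and a threshold of 0.05. Transcript usage was tested by diffSplice in limma 3.58.1 on voom weights, in R 4.3.3; robust variances were also tried after the data were seen. Both tests were checked on simulated data. On simulated data the usage test also called genes whose usage had been left unchanged, so usage calls need care. The SE of an edgeR log2 fold change was its absolute value over the square root of the test's F statistic, so it restates that test. CPM uses library totals without TMM. Shares are percent of a gene's expected counts. Floors cover counting error only. No 2 libraries agreed within sampling noise. The p-values measure the spread between these samples, whose separation into cultures the labels do not describe.

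All 7 myosin genes are named. From the list of 33 related genes, the 3 called genes with the largest change per line and direction were named, with every gene called in both lines; RHOA, MYH14 and the actin and crosslinker genes were added after their values were seen, and 1 gene that the list's counts include is not reported here. The members and lists were chosen with earlier results of these data known. Alternatives were RLE or library-size scaling, no filter, DESeq2 1.42.0, a replicate block, leaving out each library, diffSpliceDGE, a share minimum of 5%, and other ways of matching exons.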

Additional observations from a re-analysis of the deposited data

Results flagged for a closer look

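Of the myosin genes, MYL12A was singled out because its response to siHNRNPH1 differed between HT-1080 and HEK-293T by a test of the difference itself: -1.11 on the log2 scale (SE 0.23, edgeR adjusted p = 0.00709), and -0.85 without replicate 1 of HEK-293T siHNRNPH1 or -1.03 without HT-1080 siNegative replicate 2. Its level was 203.0 CPM ± 18.1 with siNegative and 118.5 ± 1.59 with siHNRNPH1 in HT-1080, and 41.7 ± 1.19 and 48.1 ± 10.4 in HEK-293T (SD, n = 3 each). With all libraries it was the only myosin gene called, beside 19.0% of all genes. Without replicate 1 of HEK-293T siHNRNPH1, MYL12B, MYH9 and MYH10 were called too, beside 49.0% of all genes. Reads shared with MYL12B leave its separate values uncertain.

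Of the 33 related genes, only those named by rule were held to the same criterion: RND3, ARHGEF2, RHOB, MYO18A, CIT, ECT2 and MYLK. CIT and MYO18A met it, beside 19.0% of all genes called in that test. The rule had picked these genes for their called changes in the same libraries, so large differences are built into the choice. CIT had a difference of -1.41 (SE 0.31, edgeR adjusted p = 0.00918) and -1.67 or -1.51 without those libraries in the same order. CIT was at 72.2, 56.2 and 70.6 CPM with siNegative and 21.0, 21.8 and 22.4 CPM with siHNRNPH1 in HT-1080. In HEK-293T it was at 88.4 to 89.9 CPM with siNegative and at 40.2, 89.4 and 89.4 CPM with siHNRNPH1, so only replicate 1 was low there. MYO18A had a difference of 1.02 (SE 0.12, edgeR adjusted p = 1.75e-04), and 1.04 or 0.98 without them. Its HEK-293T log2 fold change was -0.24, with an edgeR adjusted p = 0.229.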

How the results depend on the processing

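Results of HEK-293T depended on replicate 1 of siHNRNPH1. Without it the log2 fold changes of MYL6B, MYL12A and MYL12B in HEK-293T were -0.15, -0.044 and -0.17, opposite in sign to the values with all libraries, and the difference of MYL6B between the lines was 0.18. The ARHGEF2 difference, near 0 with all libraries, was 0.082 with library-size scaling, 0.069 with no filter and 0.016 without that library. Over all single left-out libraries, MYL6B ranged from -0.15 to 0.53, MYL12A from -0.044 to 0.29 and MYL12B from -0.17 to 0.27 in HEK-293T, the MYL6B difference from -0.56 to 0.18 and the ARHGEF2 difference from -0.10 to 0.016. The cause was not tested.

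Leaving out 1 library in turn gave 0 to 3 myosin genes called in HEK-293T, 4 to 6 in HT-1080, 1 to 4 with a different response, 5 to 7 different between lines with siNegative, 0 to 23 related genes called in HEK-293T and 21 to 26 in HT-1080, 0 to 1 myosin genes called for usage in HEK-293T and 1 to 2 in HT-1080. The share of all genes called moved too. Without HEK-293T siHNRNPH1 replicate 1 it was 61.8% for that line (10.0% with all libraries) and 49.0% for the difference between lines (19.0%). Without HT-1080 siNegative replicate 2, 70.4% were called in HT-1080 (65.3%). It was not counted for DESeq2, diffSpliceDGE, the replicate block or most other left-out libraries. Swings in these counts therefore cannot be read as particular to the myosin genes. DESeq2 called 2 myosin genes with a different response, adding MYH9 (adjusted p = 0.0159), and 5 related genes in HEK-293T. diffSpliceDGE called usage changes in 1 gene of HEK-293T and 0 of HT-1080, and the 5% share minimum left 0 in HT-1080 (MYH9 limma adjusted p = 0.721). With that minimum in the denominator, the difference in the share of ENST00000547649.5 of MYL6 was -53.5 points in HEK-293T (-48.3 with all transcripts) and -46.9 in HT-1080 (-39.6). Leaving out 1 library kept it at -48.8 to -47.7 and -40.2 to -39.2 points. Counting only MYL6 models of 3 exons, the most common number, or 1 more left 1 model that resolved the 45-base exon. It came from HT-1080 siNegative, began inside the exon before it, and contained it (100%). The siHNRNPH1 models that resolved the exon all had more exons and were dropped, so this setting cannot compare the pools. No filter added MYH9 in HT-1080 (edgeR adjusted p = 0.0302). Robust variances left the usage counts at 0 and 1.

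Same-numbered libraries were not paired by the data: deviations correlated at 0.117, 0.114 and 0.0326 in HEK-293T and 0.0275, 0.113 and 0.0614 in HT-1080. With the replicate block, 0 related genes were called in HEK-293T (RND3 adjusted p = 0.111 and ARHGEF2 0.0957, edgeR) and 1 usage change was called there, MYH10 (limma adjusted p = 0.00258); the block moved no other count of calls past 1.5 times.

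Depth and the model of RSEM limit the precision for transcripts under a few percent of a gene, and the number of IsoSeq models limits the exon shares.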

Other observations

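Outside the non-muscle family, MYH16 and MYH15 were detected in HT-1080, besides the embryonic heavy chain MYH3 described above. MYH16 was at 37.5 to 39.4 CPM with siNegative and 56.5 to 59.8 CPM with siHNRNPH1 in HT-1080, a log2 fold change of 0.53 (SE 0.05, edgeR adjusted p = 8.70e-06), and at no more than 1 expected count in any HEK-293T library. MYH15 was at 18.6 to 24.3 CPM in HT-1080 and 0.81 to 1.42 CPM in HEK-293T, and its log2 fold change in HT-1080 was 0.05 (SE 0.08, edgeR adjusted p = 0.582), and -0.03 without siNegative replicate 2. MYH16 and MYH15 were chosen after their values were seen.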
